A study of Mus musculus with 6 samples.

Results

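The 10 genes described here encode enzymes that add methyl groups to lysine 36 of histone H3 or take them off. They were chosen by symbol. The methyltransferases are Setd2, Nsd1, Ash1l, Setmar and Smyd2, and the demethylases are Kdm2a, Kdm2b, Kdm4a, Kdm4b and Kdm4c. All 10 were among the 46095 genes of the count table, and all 10 were among the 14611 genes with enough counts to be tested. RNA was sequenced from PTECs, primary renal tubular epithelial cells, in 6 samples from as many mice aged 10 weeks on a C57 background. The 3 libraries labelled VHL-KO (replicates 1, 2 and 4) come from mice in which Ksp-Cre, a recombinase under the promoter of the tubular cadherin gene Cdh16, deletes floxed VHL. Another 3, labelled VHL-KO;SETD2-KO (replicates 2, 3 and 4), come from mice in which the same Cre deletes floxed VHL and floxed Setd2. By these labels loss of VHL is shared by both groups, and no library without it was analysed. Vhl transcript was counted in every library, at 14.0, 12.8 and 25.8 CPM under the VHL-KO label and at 14.4, 17.8 and 11.8 CPM under the other. Ksp-Cre acts only in cells that use the Cdh16 promoter, so a cell of another type carried along in the preparation keeps both genes. The study's legends give 3 mice per group, and the sex of the mice is not given in the sources used here.

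H3K36 methylation marks the bodies of transcribed genes. Setd2 travels with elongating RNA polymerase II and is the main enzyme for the trimethyl form, H3K36me3, whereas Nsd1 and Ash1l make the mono- and dimethyl forms. Kdm2a and Kdm2b remove the dimethyl form, and the Kdm4 enzymes remove the trimethyl form along with trimethylated lysine 9 of the same histone. The demethylases are JmjC enzymes that need oxygen, iron and 2-oxoglutarate, and some genes of the wider JmjC family are known targets of the hypoxia-inducible factors that accumulate when VHL is lost. SETD2, like VHL, is a tumour suppressor gene of clear cell renal carcinoma on the short arm of human chromosome 3.

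Setd2 lies on the plus strand of mouse chromosome 9 (GRCm38, chr9:110532597-110618633), and its longest GENCODE transcript has 8350 bases in 21 exons. The study's RT-qPCR primer pair for mouse Setd2 is shown because it marks exons that count toward the gene's reads. The forward primer lies in exon 7 at chr9:110562982-110563004 and the reverse primer in exon 8 at chr9:110564617-110564639. In that transcript the pair spans bases 4889 to 4990, an amplicon of 102 bases. The primers, 5′ to 3′, are:
mSETD2-F: catagctgtgaaccaaactgtga
mSETD2-R: taattctgagcctgaaggaacta

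Promoter sequence was at hand from RefSeq for 6 of the 10 genes, namely Setd2, Setmar, Smyd2, Kdm2b, Kdm4a and Kdm4c. Setd2 and Kdm4c are shown because their levels ran closely together over the 6 libraries, as described later. Each stretch lies upstream of a RefSeq start in GRCm38.p6, on the plus strand. The Setd2 stretch is chr9:110532347-110532499 and the Kdm4c stretch is chr4:74251715-74251878, where the capitals mark CACGTG:
Setd2 promoter: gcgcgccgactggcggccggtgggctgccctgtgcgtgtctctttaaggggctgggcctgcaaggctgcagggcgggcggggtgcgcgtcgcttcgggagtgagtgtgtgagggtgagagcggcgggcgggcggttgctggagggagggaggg
Kdm4c promoter: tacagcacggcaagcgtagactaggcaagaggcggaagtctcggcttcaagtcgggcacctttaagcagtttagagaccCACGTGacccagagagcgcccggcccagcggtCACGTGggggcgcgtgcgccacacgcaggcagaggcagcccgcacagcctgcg
Over the 250 bases before each start, GC content was 76% for Setd2 and 60.4% for Kdm4c, with 31 and 19 CpG pairs. ACGTG and GCGTG, the forms of the hypoxia response element core, were searched on both strands. The Setd2 window held 1 GCGTG and no ACGTG, and the Kdm4c window held 2 GCGTG. The Kdm4c window held 2 CACGTG, a palindrome that contains ACGTG on both strands. Kdm4c has a second RefSeq start whose 250-base window held none of these. Over all 32851 RefSeq promoters, 16.6% held ACGTG, 28.2% GCGTG and 6.02% held CACGTG. A match is a description of letters and says nothing on binding.

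The libraries held 11168552 to 17883466 counts, so that 3 counts corresponded to 0.168 to 0.269 CPM, the count scaled to library size. The library labelled VHL-KO replicate 4 stood apart, with 11.3% of its counts on mitochondrial genes against 25.9% to 36.4% in the other 5, and the log2 fold changes of the members are given with and without it. The markers of proximal tubule (8 of 8 in the table) were present in every library, summing to 11993, 11576 and 23125 CPM in VHL-KO replicates 1, 2 and 4 and to 5002 to 7243 CPM under the VHL-KO;SETD2-KO label. All 8 had negative fold changes, 4 with an unadjusted p under 0.05 and 0 with an adjusted one in edgeR. Markers of thick limb and distal tubule summed to 1194 to 4796 and 1480 to 4088 CPM, and those of collecting duct to 48.5 to 421 and 68.6 to 201 CPM. The 4 podocyte markers summed to 1179 to 2005 and 1668 to 3872 CPM, and the 5 endothelial markers to 814 to 1667 and 1209 to 4004 CPM. Stromal and immune markers summed to at most 378 CPM and 143 CPM in any library. VHL-KO replicate 4 had the highest proximal tubule, thick limb, collecting duct and stromal sums of all 6 libraries, and Cdh16 was at 2252 CPM there against 331 to 683 CPM in the others. Not every marker followed its sum. Slc34a1 (14181 CPM), Slc5a2, Slc22a6, Slc22a8, Aqp1 and Hnf4a were highest there, while Lrp2 was lowest (938 CPM) and Cubn was at 292 CPM. Umod, Slc12a3 and Pvalb of the thick limb and distal tubule list were highest there, but Slc12a1 (79.1 CPM) and Calb1 (42.4 CPM) lowest. Of the collecting duct list, Aqp2 (257 CPM), Aqp3 and Slc4a1 were highest there, Atp6v1g3 (2.71 CPM) was lowest, and Scnn1g and Foxi1 were neither. Of the stromal list, Col1a1, Col1a2 and Acta2 were highest there, but Pdgfrb and Dcn were not. In these bulk libraries, fewer cells of a type and less RNA per cell cannot be told apart.

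Setd2 was examined first, since its deletion separates the groups. Its counts were 1179, 799 and 132 under the VHL-KO label (replicates 1, 2 and 4) and 1499, 1019 and 1429 under the VHL-KO;SETD2-KO label (replicates 2, 3 and 4). After TMM normalization these are 71.3, 73.8 and 12.3 CPM against 79.5, 57.3 and 89.5 CPM. The groups overlapped, the single low library was VHL-KO replicate 4, and no library labelled VHL-KO;SETD2-KO was low. The means were 52.5 ± 34.8 CPM and 75.4 ± 16.5 CPM (SD, n = 3 each), a log2 fold change of 0.52 (95% interval -0.95 to 2.00, adjusted p = 0.787, edgeR's quasi-likelihood test with Benjamini-Hochberg adjustment). All fold changes are given as VHL-KO;SETD2-KO relative to VHL-KO. With VHL-KO replicate 4 left out, the log2 fold change was 0.052, with a 95% interval of -0.46 to 0.56. The Setd2 count thus did not show the deletion that the second label names, and by itself it cannot tell whether the floxed exons were lost. Libraries are called by their labels throughout. The table has a single count for each gene, which keeps deleted and remaining exons of Setd2 together. The loxP positions are not given in the sources used here, and transcript from cells without Cre is counted too.

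**Figure D1:**
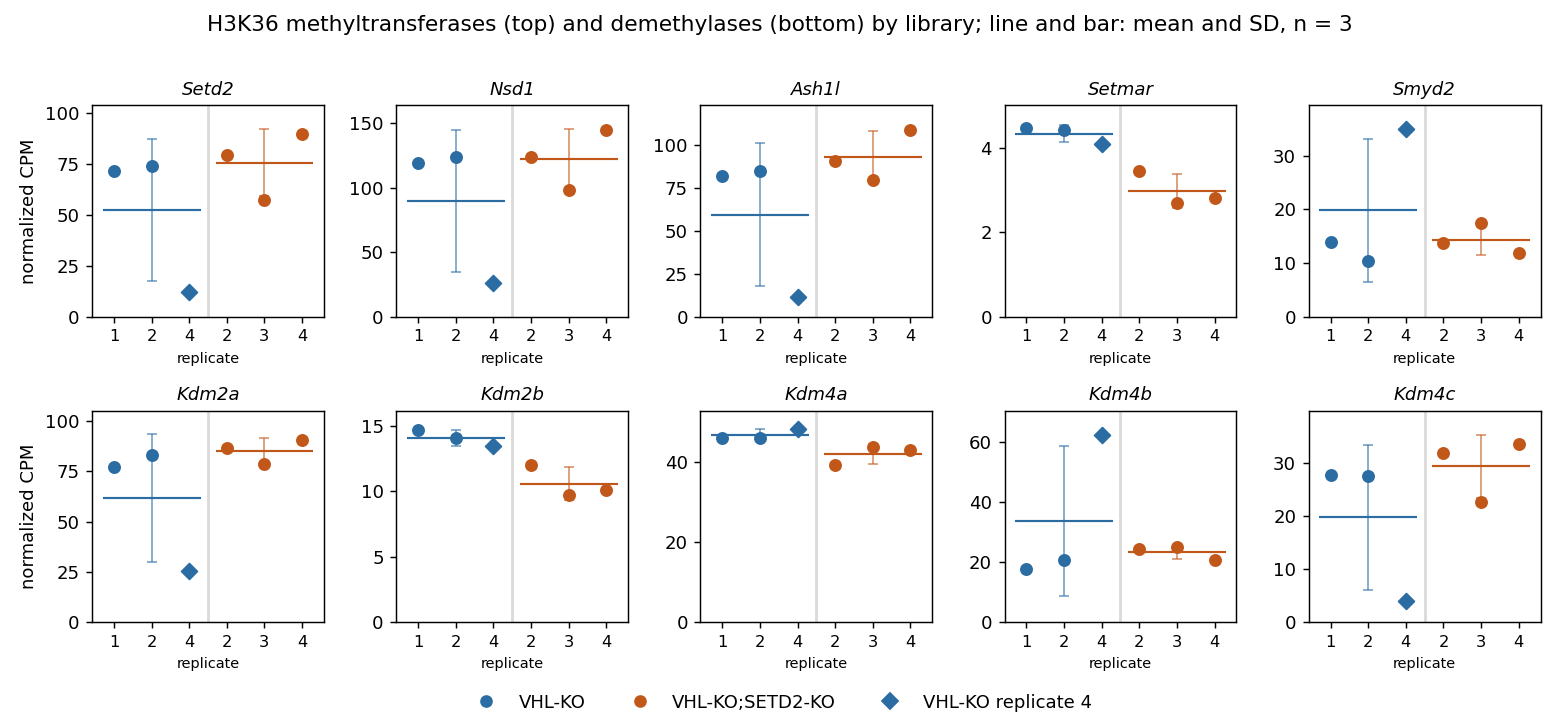
Normalized CPM of the 10 genes in each library (y axis from 0, x axis the replicate number within each label), with a line at the mean and a bar of 1 SD (n = 3 per label). The diamond, VHL-KO replicate 4, lies far below the other points for Setd2, Nsd1, Ash1l, Kdm2a and Kdm4c, far above them for Smyd2 and Kdm4b, and near the VHL-KO points for Setmar, Kdm2b and Kdm4a.

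Nsd1, which dimethylates H3K36 and is mutated in Sotos syndrome, showed the same layout. It was at 119.6, 123.8 and 26.05 CPM under the VHL-KO label and at 123.7, 98.0 and 145.0 CPM under the VHL-KO;SETD2-KO label. Again only VHL-KO replicate 4 was low, and the groups overlapped. Its log2 fold change was 0.44 (95% interval -0.92 to 1.81), and without VHL-KO replicate 4 it was 0.0026 (95% interval -0.48 to 0.48).

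Ash1l, a trithorax group dimethylase of H3K36 that keeps developmental genes active, followed the same order of libraries. Its values were 82.2, 85.3 and 11.3 CPM against 90.9, 79.9 and 109.3 CPM. VHL-KO replicate 4 held the lowest value and the others overlapped. The log2 fold change was 0.65 (95% interval -0.92 to 2.22), the highest of the 10, and 0.15 (95% interval -0.27 to 0.57) without that library. Ash1l shares 352 bases of exon, 2.37% of its exonic bases, with Dap3 on the opposite strand, and whether strand was used in counting is not given in the sources used here.

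Setmar joins a SET domain to the remnant of a mariner transposase in primates, while the mouse gene has the SET part alone. It was sparsely counted, with 74, 48 and 44 counts under the VHL-KO label and 65, 48 and 45 under the VHL-KO;SETD2-KO label. For the last of these the exact 95% Poisson interval of 32.8 to 60.2 counts, which covers counting error only, is wide. Normalized values were 4.48, 4.43 and 4.11 CPM against 3.45, 2.70 and 2.82 CPM. Every library labelled VHL-KO;SETD2-KO lay below every library labelled VHL-KO, replicate 4 included. The log2 fold change was -0.54 (95% interval -1.51 to 0.43, adjusted p = 0.687, edgeR), and -0.58 (95% interval -1.27 to 0.11) without VHL-KO replicate 4. The test was not passed in either fit.

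Smyd2 methylates H3K36 and also non-histone proteins such as p53. It was at 13.9, 10.4 and 35.0 CPM under the VHL-KO label and at 13.8, 17.4 and 11.9 CPM under the VHL-KO;SETD2-KO label. Here VHL-KO replicate 4 was the high library, and the groups overlapped. The log2 fold change of -0.46 (95% interval -1.66 to 0.74) turned to 0.23 (95% interval -0.35 to 0.82) without it. Of the exonic bases of Smyd2, 814 (29.96%) lie opposite exons of Gm37422, a gene that is not among the rows of the table, so its sense and antisense reads may not be separate.

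Kdm2a and Kdm2b are F-box proteins with a CXXC domain that binds unmethylated CpG islands. Kdm2a was at 77.3, 83.0 and 25.3 CPM under the VHL-KO label and at 86.8, 78.4 and 90.5 CPM under the VHL-KO;SETD2-KO label. VHL-KO replicate 4 was the only low library. Its log2 fold change was 0.46 (95% interval -0.69 to 1.62), and 0.085 (95% interval -0.24 to 0.41) without VHL-KO replicate 4. Kdm2b, which recruits the polycomb complex PRC1.1, behaved differently. Its values were 14.6, 14.0 and 13.4 CPM against 11.99, 9.67 and 10.1 CPM, and the groups did not overlap. The log2 fold change was -0.41 (95% interval -1.23 to 0.41, adjusted p = 0.713, edgeR). Without VHL-KO replicate 4 it was -0.44 (95% interval -0.88 to -0.0057, adjusted p = 0.240, edgeR), with an unadjusted p of 0.0479 in edgeR's fit over all genes. That fit gave 20.5% of all 15000 genes an unadjusted p under 0.05, and the size of -0.44 is under the 1.5-fold needed for a call. Of the exonic bases of Kdm2b, 5.77% lie opposite exons of Rnf34.

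Kdm4a, the most even of the 3 Kdm4 genes, was at 46.1, 45.99 and 48.4 CPM under the VHL-KO label and at 39.3, 43.8 and 43.0 CPM with the VHL-KO;SETD2-KO label. The groups did not overlap, but the log2 fold change was small at -0.15 (95% interval -0.95 to 0.64) and -0.13 (95% interval -0.43 to 0.16) without VHL-KO replicate 4. Kdm4b was at 17.6, 20.9 and 62.5 CPM against 24.3, 25.2 and 20.8 CPM. Its high value was again that of VHL-KO replicate 4, and the direction turned without it, from -0.52 (95% interval -1.76 to 0.72) to 0.28 (95% interval -0.12 to 0.68). Kdm4c was the mirror image, at 27.7, 27.5 and 4.01 CPM against 31.7, 22.5 and 33.6 CPM. Its log2 fold change of 0.57 (95% interval -0.95 to 2.09) was 0.082 (95% interval -0.41 to 0.57) without that library.

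Over the 10 genes together, 0 passed p under 0.05 with a fold change of at least 1.5, unadjusted or adjusted, in edgeR's test. This compares with 7.34% of all 14611 genes called without adjustment and 0.00684%, a single gene, with it. At an unadjusted p under 0.05 alone the count was 0 of 10 by edgeR, by DESeq2 and by limma-voom, and 2 of 10 (Setmar and Kdm2b) by limma-voom with sample quality weights, which gave 35.6% of all genes such a p. DESeq2 called 6.21% of its genes by the unadjusted rule and 0.194% by the adjusted one, and limma-voom with quality weights 25.0% and 18.2%, with 0 members among them. Among the 5 methyltransferases 3 fold changes were positive with a median of 0.44, and among the 5 demethylases 2 were positive with a median of -0.15, against a median of 0.0095 over all genes. Without VHL-KO replicate 4 the medians were 0.052 and 0.082 against 0.035 over all genes. In that fit 0 members passed either rule, against 15.4% of all genes without adjustment and 0.00667% with it. The 3 genes without overlap, Setmar, Kdm2b and Kdm4a, all had their lower values in the libraries with the VHL-KO;SETD2-KO label, and 11.0% of all tested genes were lower without overlap. A further 9.62% of all genes were higher without overlap, and 0 of the 10 members were. Leaving out VHL-KO replicate 4 left the same 3 members lower without overlap, with 21.2% of all genes lower and 20.5% higher.

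**Figure D2:**
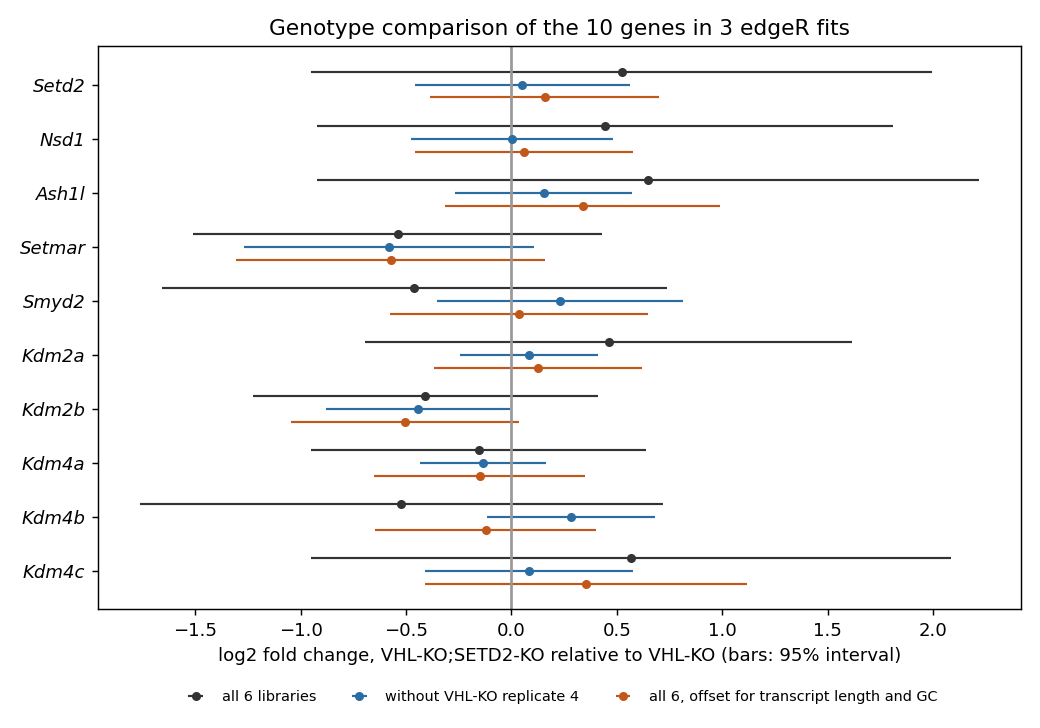
Log2 fold change of each gene (x axis, VHL-KO;SETD2-KO relative to VHL-KO) with its 95% interval in 3 edgeR fits, namely all 6 libraries, without VHL-KO replicate 4, and all 6 with transcript length and GC content as an offset. Every interval of the fit over all 6 libraries spans 0, and the intervals shrink when VHL-KO replicate 4 is left out, where that of Kdm2b ends just below 0.

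The intervals say how large a difference these libraries leave room for. In the fit of 5 libraries, without VHL-KO replicate 4, the lower ends for Setd2, Nsd1, Ash1l, Kdm2a and Kdm4c were -0.46, -0.48, -0.27, -0.24 and -0.41. A log2 fold change of -1 lies outside each of them, which for Setd2 concerns the count of the whole gene, deleted and remaining exons together. With all 6 libraries the lower ends of these 5 genes lay between -0.95 and -0.69. Their upper ends there ran from 1.62 (Kdm2a) to 2.22 (Ash1l), so a log2 fold change of 1 lies inside each. For Setmar a log2 fold change of -1 lies inside the interval in both fits. With all 6 libraries it also lies inside those of Smyd2, Kdm2b and Kdm4b, with lower ends of -1.66, -1.23 and -1.76.

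The distance of VHL-KO replicate 4 from VHL-KO replicates 1 and 2 differed from gene to gene among the members. It was -2.88 on the log2 CPM scale for Ash1l, -2.74 for Kdm4c, -2.54 for Setd2, -2.22 for Nsd1 and -1.66 for Kdm2a. Setmar, Kdm2b and Kdm4a differed by -0.11, -0.092 and 0.070. Smyd2 and Kdm4b were higher in replicate 4, by 1.53 and 1.70. In folds, Setd2 was 5.89 times, Kdm4c 6.87 times and Ash1l 7.41 times higher in the mean of replicates 1 and 2, whereas Kdm4b was 3.25 times higher in replicate 4. Over the other 5 libraries the highest value of a member was only 1.17 (Kdm2a and Kdm4a) to 1.67 times (Smyd2) its lowest.

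The members were set beside all tested genes of like transcript composition, using the longest GENCODE transcript, which 14121 of the tested genes (96.6%) have. Over these genes the distance of VHL-KO replicate 4 went from a median of -2.45 for transcripts under 42% GC to 1.68 for those of 58% GC or more. By length it went from a median of 1.14 under 1000 bases to -1.70 at 8000 bases or more. Across these genes Spearman's rho was 0.736 for GC content and -0.387 for length, a description without a test, since genes are not independent replicates. The members ran in a similar order, from Kdm4c (43.7% GC), Setd2 (44.3%), Ash1l (45.4%) and Nsd1 (46.5%), which were low, to Kdm4b (58.7%), which was high. Most lay below the median of their own GC class, by 0.69 for Kdm4c and 1.00 for Setd2 up to 1.37 for Kdm2a. Setmar (47.0% GC) lay 0.91 above its class, Smyd2 0.50 above and Kdm4b at it, 0.019 above. The median distance of the 10 members from their class was 0.98 by GC content and 0.82 by length. What sets that library apart was not tested.

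**Figure D3:**
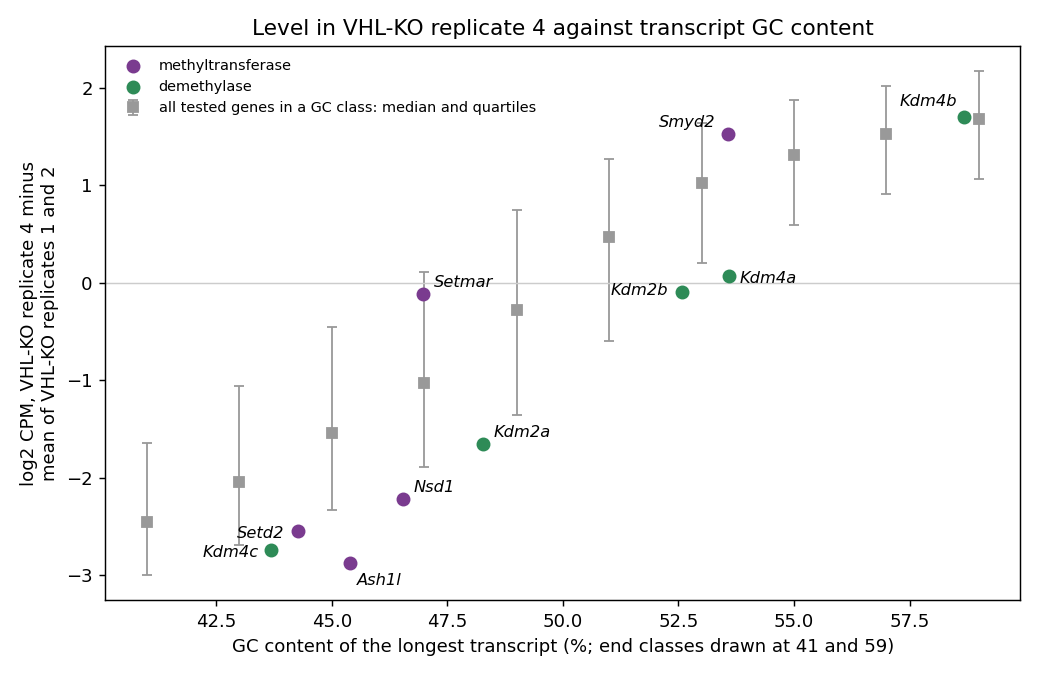
Log2 CPM in VHL-KO replicate 4 minus the mean of VHL-KO replicates 1 and 2 (y axis) against GC content of the longest transcript in percent (x axis), for the 10 genes (points) and for all tested genes in classes of GC content (squares, median with quartiles). The class medians climb from -2.45 to 1.68, and the 10 genes climb with them from -2.74 for Kdm4c to 1.70 for Kdm4b.

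With transcript length and GC content as an offset, fitted in each library, all 6 libraries could be used together. The log2 fold changes were then 0.16 for Setd2, 0.058 for Nsd1, 0.34 for Ash1l, 0.13 for Kdm2a and 0.36 for Kdm4c. Those of Smyd2 and Kdm4b came to 0.036 and -0.12, near 0 from either side. Setmar at -0.57 and Kdm2b at -0.50 were the largest negative values, and 0 of the 10 members but 14.5% of all genes passed the unadjusted rule (15.2% without the fold). Kdm2b had an adjusted p of 0.351 in this edgeR fit. The offset was chosen after the data had been seen.

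Within the VHL-KO;SETD2-KO label, several members shared their lowest library. Setd2 was at 79.5 and 89.5 CPM in replicates 2 and 4 and at 57.3 CPM in replicate 3. Nsd1, Ash1l, Setmar, Kdm2a, Kdm2b and Kdm4c were also lowest in replicate 3, while Smyd2, Kdm4a and Kdm4b were highest there. Some margins were small, so that such ranks are not resolved. In replicates 3 and 4, Setmar was at 2.70 and 2.82 CPM, Kdm2b at 9.67 and 10.1 CPM and Kdm4a at 43.8 and 43.0 CPM. Podocyte markers summed to 3872, 1668 and 3502 CPM in replicates 2, 3 and 4, and endothelial markers to 4004, 1209 and 3233 CPM. Summed over a list, tubular markers were instead highest in replicate 3. Those of proximal tubule summed to 5002, 7243 and 6174 CPM in the same order, and those of thick limb and distal tubule to 1480, 4088 and 1760 CPM. Collecting duct markers summed to 68.6, 201 and 71.6 CPM, and Cdh16 was at 331, 683 and 358 CPM. Within the proximal tubule list, Slc22a6 was lowest in replicate 3 (302 CPM, against 441 and 468 CPM in replicates 2 and 4). Lrp2 was highest in replicate 4 (1731 CPM, against 1678 CPM in replicate 3), and the rest of that list was highest in replicate 3. All 4 podocyte and all 5 endothelial markers had positive fold changes under this label, and 0 of them passed the adjusted test in edgeR, while 2 podocyte and 0 endothelial markers had an unadjusted p under 0.05. None of these markers was at 0 in any library, and the endothelial receptor gene Kdr was at 466 to 1608 CPM in this group. The part of any of these cell types in the Setd2 count was not tested.

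Levels were compared between genes only per length, as CPM per kilobase of the longest transcript, over the 5 libraries without VHL-KO replicate 4. Kdm2a led at 9.70 ± 0.65 CPM per kilobase (SD, n = 5 over both labels), followed by Nsd1 at 9.55 ± 1.31, Kdm4a at 9.36 ± 0.60 and Setd2 at 8.90 ± 1.41. Smyd2 (7.90 ± 1.54), Ash1l (7.69 ± 1.02) and Kdm4c (6.82 ± 1.02) came next. Among these 7 genes neighbours in the order differed by less than their SDs, so their order is not resolved. Kdm4b was at 4.75 ± 0.67, and its highest library, 5.50, just passed the lowest of Kdm4c, 5.37. Kdm2b (2.33 ± 0.43) and Setmar (2.05 ± 0.49) were lowest, overlapped each other, and lay below every Kdm4b value. These levels depend on the transcript taken as the length. With the median transcript length, Nsd1 came to 106.2, Setd2 to 57.8, Kdm2a to 51.99 and Kdm4a to 11.2 CPM per kilobase, so that Kdm4a no longer lay near Setd2 and Nsd1. In addition, the longest transcripts of Setmar and Smyd2 are annotated as nonsense-mediated decay and retained intron.

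**Figure D4:**
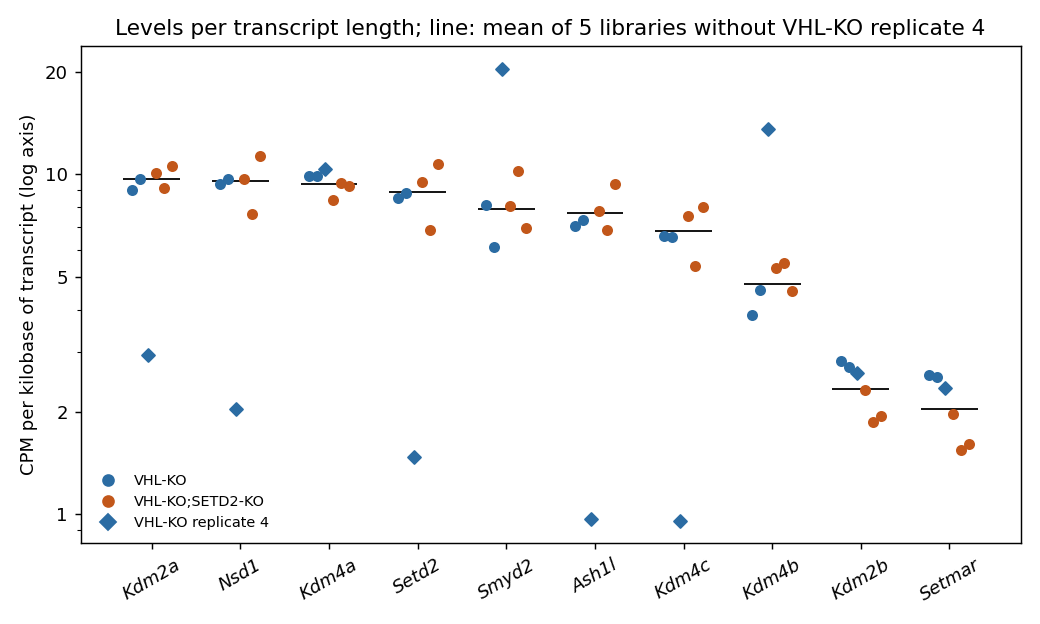
CPM per kilobase of the longest transcript (y axis, log scale) for the 10 genes in order of their mean over 5 libraries (line), with each library as a point and VHL-KO replicate 4, which is not in the mean, as a diamond. From Kdm2a to Kdm4c the points of neighbouring genes intermingle, and Kdm2b and Setmar lie lowest.

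Summed per kilobase, the 5 methyltransferases came to 1.11, 1.03 and 0.896 times the 5 demethylases under the VHL-KO label and to 1.099, 1.06 and 1.17 times with the VHL-KO;SETD2-KO label. The ratio was lowest in VHL-KO replicate 4, where opposite shifts of single genes are held within the sums. Smyd2 made up 20.5 of the methyltransferase sum of 27.3 CPM per kilobase there, against 8.15 of 35.7 in VHL-KO replicate 1. Kdm4b made up 13.6 of the demethylase sum of 30.5 there, against 3.85 of 32.2. Like the levels, these sums depend on the transcript taken as the length. Setd2 per kilobase was 0.420, 0.421 and 0.0591 times the sum of the 3 Kdm4 genes under the VHL-KO label and 0.447, 0.338 and 0.492 times under the VHL-KO;SETD2-KO label. Within the Kdm4 sum, Kdm4a held 48.6%, 47.0% and 41.5% under the VHL-KO label and 39.6%, 46.4% and 42.4% under the other. Kdm4c held 3.83% in VHL-KO replicate 4 and 26.5% to 36.7% in the other 5 libraries, and Kdm4b 54.6% against 18.9% to 27.1%. Kdm2a per kilobase was 3.19, 3.57 and 1.14 times Kdm2b under the VHL-KO label and 4.37, 4.90 and 5.42 times with the VHL-KO;SETD2-KO label. These ratios did not overlap between the labels with or without VHL-KO replicate 4, and no test was made on them. Kdm2b alone already did not overlap, and 11.0% of all tested genes were likewise lower without overlap (21.2% without VHL-KO replicate 4). How often the ratio of a gene pair does so was not counted.

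**Figure D5:**
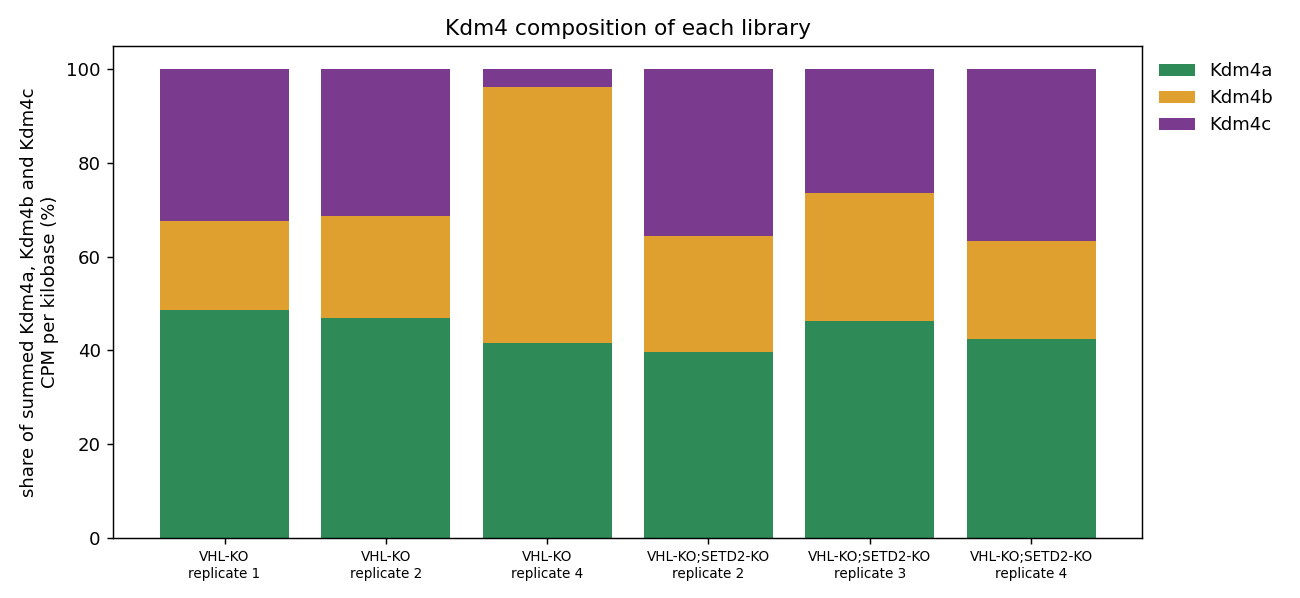
Share of Kdm4a, Kdm4b and Kdm4c in their summed CPM per kilobase (y axis, percent) in each of the 6 libraries (bars). Kdm4a takes 39.6% to 48.6% in every library, whereas in VHL-KO replicate 4 Kdm4b takes 54.6% and Kdm4c 3.83%.

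The genes whose log2 CPM ran most like Setd2 over the 6 libraries, of 12398 compared, were Ankfy1, Eif2ak2, Srsf5, Nsd1 and Brox, each with a Pearson correlation of at least 0.999. Nsd1 is the only member among them, and Kdm4c (0.999), Ash1l (0.994) and Kdm2a (0.993) were close behind. All 6 points share 1 library that lies far from the rest. Without VHL-KO replicate 4 the 5 named genes had correlations of 0.982 to 0.990 over 5 libraries, and none of them was among the 5 most alike. Smyd2 and Kdm4b ran opposite to Setd2 over 6 libraries (-0.955 and -0.959), and at -0.703 and -0.326 over 5. These are descriptions without a test.

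Further genes of H3K36 methylation were read as lists. Of 8 other H3K36 enzymes 7 were tested. In edgeR over all 6 libraries 0 of the 7 had an unadjusted p under 0.05. The share was 7.34% over all genes, for the lists below as well. Their median log2 fold change was -0.088. Without VHL-KO replicate 4 it was -0.20, against 0.035 over all genes, with 6 of the 7 negative. Smyd5 had the lowest p, with a log2 fold change of -1.07 (adjusted p = 0.625, edgeR), and its values were 11.6, 7.94 and 35.2 CPM against 8.01, 9.61 and 8.52 CPM. Its log2 fold change without VHL-KO replicate 4 was -0.18, and that of Kdm8 went from -0.58 to -0.26. Whsc1l1, also called Nsd3, was at 93.6, 91.9 and 17.4 CPM against 74.6, 77.0 and 90.6 CPM, and its log2 fold change went from 0.26 to -0.20. The demethylase gene Riox1 (2410016O06Rik in the table) turned from -0.088 over all 6 libraries to 0.61 without VHL-KO replicate 4, there with an unadjusted p of 0.0320 in edgeR's fit and an adjusted p of 0.208.

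Setd2 works with the elongation machinery, and none of the 13 genes listed for it had an unadjusted p under 0.05 in edgeR over all 6 libraries (median log2 fold change 0.29, and 0.043 without VHL-KO replicate 4). Supt16 and Ssrp1, the subunits of the histone chaperone FACT, had log2 fold changes of 0.54 and 0.34, and 0.16 and 0.24 without that library. Paf1, of the PAF complex that travels with the polymerase, was at 34.1, 33.9 and 32.1 CPM against 40.9, 49.4 and 41.5 CPM. Those groups did not overlap, nor did those of Ssrp1, and 9.62% of all tested genes were higher without overlap. The log2 fold change of Paf1 was 0.40 over all 6 libraries and 0.37 without VHL-KO replicate 4 (adjusted p = 0.230, edgeR).

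For Kdm2b the list was its PRC1.1 partners, of which 8 of 9 were tested and 0 had an unadjusted p under 0.05 in edgeR over all 6 libraries (median log2 fold change 0.34, and 0.029 without VHL-KO replicate 4). Rybp, Bcor and Usp7 had log2 fold changes of 0.86, 0.45 and 0.39, and 0.33, 0.11 and -0.018 without VHL-KO replicate 4. Skp1a, the F-box adaptor, was at 265, 240 and 66.3 CPM against 184, 195 and 188 CPM, with a log2 fold change of -0.011 that became -0.42 without VHL-KO replicate 4 (adjusted p = 0.197, edgeR). The partners of Ash1l and Nsd1, 4 of 4 tested, included Morf4l1 at 0.60, Psip1 at 0.78 and Rbbp4 at -0.57 (0.22, 0.28 and -0.14 without VHL-KO replicate 4), and 0 of the 4 had an unadjusted p under 0.05 in edgeR.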

How the data were processed

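RNA was measured by paired-end sequencing of directional libraries from PTECs, 3 per genotype label. The study's legends give 3 mice per group, and the labels number the samples without naming the mice. The authors deposited raw counts per gene symbol, without normalization. The submitters' processing notes name HISAT2 2.0.4 and GRCm38, while the counting program, the annotation and the use of strand are not given in the sources used here. These were normalized by TMM and tested by edgeR 4.0.16's quasi-likelihood method (R 4.3.3) in the 14611 of 46095 genes that filterByExpr kept. Genotype label was the sole factor, and Benjamini-Hochberg adjustment ran over all tested genes. A call needed p under 0.05 with at least a 1.5-fold unshrunken change. A prior count of 2 entered log2 CPM. Alternatives were DESeq2 1.42.0, limma 3.58.1, other filters and size factors, a replicate block, length and GC offsets, and leaving out each library. A detection floor of 3 counts was used. Floors and intervals of counts cover counting error alone, because reads that carry no molecular identifiers can be copies. Transcript lengths, GC content and coordinates came from GENCODE (GRCm38) and promoters from RefSeq (GRCm38.p6). The members and gene lists were chosen with earlier results of these data known. Named genes are the 10 members, up to 3 of lowest p in each other list with those under 0.05, and the 5 genes most like Setd2. Riox1 and Skp1a are named for p under 0.05 without VHL-KO replicate 4, and Phf2 and Kdm5c were picked with their values known. The tests were checked on simulated data that held no outlying library and no GC or length trend. That check therefore does not cover the shift of VHL-KO replicate 4. Of the podocyte list, a marker gene is not reported here and was left out of its sum.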

Additional observations from a re-analysis of the deposited data

How the results depend on the processing

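Over all genes, 388 were called higher and 684 lower without adjustment, and 0 and 1 with it, relative to VHL-KO. DESeq2 called 1123 lower, and 2 higher and 47 lower with adjustment. Limma-voom with sample quality weights called 2125 and 1527, and 1453 and 1205 with adjustment. Without a filter on low counts 634 were higher, and 2 lower with adjustment, against 0 with at least 10 counts in every library. Leaving out each library in turn gave 179 to 1243 higher and 206 to 1078 lower, and 0 to 1 lower with adjustment. Each of the 6 libraries moved a count by over 1.5 times. Leaving out VHL-KO replicates 1, 2 and 4 in turn gave higher and lower counts of 199 and 982, 395 and 1078, and 1243 and 1073. Leaving out VHL-KO;SETD2-KO replicates 2, 3 and 4 in turn gave 179 and 206, 354 and 328, and 187 and 268. DESeq2 without VHL-KO replicate 4 called 1485 and 1125, and 513 and 689 with adjustment. With a length offset 2 were lower with adjustment. With a length and GC offset 807 and 1313 were called, and 1083 and 1209 without VHL-KO replicate 4. The replicate block gave 93 higher and 54 lower, and with the length and GC offset 606 higher, and 2 lower with adjustment. Numbers 2 and 4 occur under both labels, and the deviations of same-numbered libraries from their label's mean correlated at 0.165 and -0.319. VHL-KO replicate 4 enters the mean behind both values. They therefore cannot tell whether same-numbered libraries share more than a number. Setd2 had a log2 fold change of 1.48 with the block. The ratio of the highest to the lowest member per kilobase was 49.9 with the median transcript length in place of the longest, against 4.74.

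In all 19 alternatives 0 of the 10 members were called. Setd2, Ash1l, Setmar, Kdm2b, Kdm4a and Kdm4c kept their sign in each. Without the fold rule, Kdm2b had an unadjusted p under 0.05 in 3 alternatives and Setmar in 1. The lowest for Kdm2b was 0.0167 in edgeR with the length and GC offset and without VHL-KO replicate 4. There its log2 fold change was -0.58, under 1.5-fold, with an adjusted p of 0.157, and 1083 genes were called higher and 1209 lower. Riox1 and Kdm5c were named outside the rule of lowest p, and not all of their fits are listed. Riox1 went from -0.088 to 0.61 without VHL-KO replicate 4 and to 0.48 with the length and GC offset, by edgeR. Kdm5c went from -0.074 to 0.085 without that library. Among the genes named by rule, the following log2 fold changes changed sign. In the absence of VHL-KO replicate 4 they were Smyd2 0.23, Kdm4b 0.28, Setdb1 -0.091, Suv39h1 0.27, Usp7 -0.018 and Whsc1l1 -0.20 by edgeR, and Smyd2 0.22, Kdm4b 0.28, Nsd1 -0.0056, Setdb1 -0.099, Suv39h1 0.27, Usp7 -0.026 and Whsc1l1 -0.21 by DESeq2. Quality weights gave Smyd2 0.071, Kdm4b 0.22, Setdb1 -0.037, Suv39h1 0.36 and Whsc1l1 -0.14. The length offset gave Setdb1 -0.14 and Whsc1l1 -0.034. The length and GC offset gave Smyd2 0.036, Ankfy1 -0.0085, Setdb1 -0.13 and Whsc1l1 -0.050, and without VHL-KO replicate 4 it gave Smyd2 0.19, Kdm4b 0.036, Nsd1 -0.070, Kdm2a -3.34e-05, Ankfy1 -0.027, Bcor -0.061, Setdb1 -0.16, Suv39h1 0.25, Usp7 -0.034 and Whsc1l1 -0.27. With the replicate block as well it gave Morf4l1 -0.0097 and Setdb1 -0.11. With each library left out in turn, the genes named by rule that turned ranged from -0.75 to 0.23 (Smyd2) and -0.81 to 0.28 (Kdm4b). The others ranged from -0.091 to 0.35 (Setdb1), -0.46 to 0.27 (Suv39h1), -0.018 to 0.66 (Usp7) and -0.20 to 0.56 (Whsc1l1). The cause of these turns was not tested. With 3 libraries a label, a fold under 1.5 in a gene counted as sparsely as Setmar cannot be resolved.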

Other observations

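The Kdm4 enzymes also act on trimethylated lysine 9 of histone H3, so enzymes that methylate that lysine, to any degree, were read alongside them. Of 6 H3K9 methyltransferase genes 4 were tested, and 0 of the 4 had an unadjusted p under 0.05 in edgeR over all 6 libraries. Setdb1, which silences retroelements, was at 32.6, 33.7 and 16.5 CPM under the VHL-KO label and at 31.98, 28.9 and 32.7 CPM under the VHL-KO;SETD2-KO label. Setdb1 had a log2 fold change of 0.18, and of -0.091 without VHL-KO replicate 4. Ehmt1 had 0.52 and Suv39h1 -0.20, and 0.26 and 0.27 without that library. The list's median was 0.12, and 0.087 without VHL-KO replicate 4.

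The wider JmjC demethylases, 11 of 11 tested, had a median log2 fold change of 0.35 over all 6 libraries and 0.014 without VHL-KO replicate 4, and 0 of the 11 had an unadjusted p under 0.05 in edgeR over all 6. Kdm6a, an H3K27 demethylase gene on the X chromosome, was at 35.5, 35.9 and 4.01 CPM against 39.1, 45.4 and 42.5 CPM, and its log2 fold change was 0.75, or 0.24 without VHL-KO replicate 4. Jmjd1c and Phf8 had log2 fold changes of 0.60 and 0.37, and 0.090 and 0.13 without that library. Phf2 went from 0.29 to 0.48 (adjusted p = 0.206, edgeR). Kdm5c, another X-linked demethylase gene, was at 65.4, 73.2 and 94.1 CPM against 58.7, 92.3 and 70.0 CPM, with VHL-KO;SETD2-KO replicate 3 the highest of its group.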
